A study of Mus musculus with 8 samples.

Results

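The genes of the constitutive proteasome were compared between mouse alpha cells given an empty plasmid and the same cells given a Yy1 plasmid. They were taken by symbol: every protein-coding gene named Psma, Psmb, Psmc, Psmd, Psme, Psmf or Psmg and a number, without the immunosubunits Psmb8, Psmb9 and Psmb10 and without pseudogene names. This rule found 47 genes among the 75078 in the table. By role, 16 belong to the core particle, 17 to the cap, 7 to assembly and 5 to the alternative caps. The other two are Psmf1, an inhibitor of the core, and Psmc3ip, which shares the name pattern but encodes a factor of meiotic recombination. Of the 47 genes, 44 had enough counts to be tested. Psmc3ip is among the 44 and is kept in the counts, medians and sums over all members. One more gene, Psme3ip1, carries a symbol of the pattern in RefSeq only and was not counted.

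The cells were αTC1-6, a line of glucagon-producing alpha cells from the mouse pancreas. All 8 samples were kept in DMEM labelled 11 mM and transfected 24 h after seeding, 4 of them with the empty plasmid (libraries 31, 32, 33 and 34) and 4 with the plasmid that overexpresses Yy1 (libraries 45, 46, 47 and 48). Which promoter drives the plasmid, how many cells took it up and when RNA was taken are not given in the sources used here. The labels name separate samples without saying that these were separate cultures, so each p-value rests on a spread between samples that may be only technical. Handling that differed between the groups cannot be told apart from the plasmid.

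Yy1, the overexpressed zinc finger transcription factor, stood at 168.0 to 180.9 CPM (counts per 1000000, with library sizes scaled by TMM) in the empty libraries and at 4814 to 5897 CPM in the Yy1 libraries. The log2 fold change was 4.90 with a standard error of 0.062 (edgeR adjusted p = 7.39e-24), as the labels state. Reads from the plasmid and from the gene cannot be told apart. Depth ran from 20679804 counts in library 33 of the empty plasmid to 33347445 in library 47 of the Yy1 plasmid. Of 10 alpha cell markers 9 were tested, and their sum lay between 25930 and 26900 CPM in the empty libraries and between 26160 and 26960 CPM in the Yy1 libraries. Gc, the tenth, had no counts. Ins1, Ins2 and Ppy had no counts either, and the sums of the markers of delta and PP cells and of stroma, endothelium and immune cells stayed at or under 2.95 CPM in every library. In bulk RNA, a different number of cells and a different amount of RNA per cell cannot be told apart.

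The proteasome is the protease that degrades most short-lived and misfolded proteins of the cell once they carry ubiquitin. Its core particle is a barrel of stacked rings: the alpha rings, encoded by Psma genes, gate the entrance, and the beta rings, encoded by Psmb genes, enclose the proteolytic sites of Psmb5, Psmb6 and Psmb7. The cap binds ubiquitin, removes it and unfolds the substrate. Its base holds the ATPases of the Psmc genes with the scaffolds Psmd1 and Psmd2 and the ubiquitin receptor Psmd4, and its lid is made of other Psmd subunits around the deubiquitinase Psmd14. The subunits join in fixed proportions, and cells are known to raise their messages together when the proteasome is blocked, through the factor NRF1, encoded by Nfe2l1. In hormone-secreting cells the proteasome also clears misfolded peptides that leave the endoplasmic reticulum.

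YY1 binds the letters AAGATGGCG, and this sequence was searched, with its shorter core ATGGC, in RefSeq promoter windows that run from 250 bases before to 50 bases after an annotated gene start. Of the 47 genes, 39 matched a window. Psmb2, the member with the smallest p, and the catalytic Psmb7 matched none, so neither was searched. The windows of Psmb6, a catalytic core subunit, and Psmc5, a cap ATPase, held all 9 letters. The first 2 sequences below are those windows, and the others are the windows of Psmb3, one of the 2 genes with the smallest p, and of Psmb5, a catalytic subunit. Psmc5 was added, and the others picked from the windows with the shorter core, after the matches were seen. Capitals mark AAGATGGCG, or ATGGC and its reverse complement GCCAT. Coordinates are those of GRCm38.p6: chr11:70525107-70525406 on the plus strand for Psmb6, chr11:106255935-106256234 on the plus strand for Psmc5, chr11:97703184-97703483 on the plus strand for Psmb3 and chr14:54617946-54618245 on the minus strand for Psmb5. All are written 5′ to 3′ on the gene's strand.
Psmb6: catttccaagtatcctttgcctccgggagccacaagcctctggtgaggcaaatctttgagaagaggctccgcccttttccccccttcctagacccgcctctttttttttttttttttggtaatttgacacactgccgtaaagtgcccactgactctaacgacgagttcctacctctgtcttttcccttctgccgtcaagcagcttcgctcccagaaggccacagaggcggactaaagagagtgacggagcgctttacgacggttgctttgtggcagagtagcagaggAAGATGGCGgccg
Psmc5: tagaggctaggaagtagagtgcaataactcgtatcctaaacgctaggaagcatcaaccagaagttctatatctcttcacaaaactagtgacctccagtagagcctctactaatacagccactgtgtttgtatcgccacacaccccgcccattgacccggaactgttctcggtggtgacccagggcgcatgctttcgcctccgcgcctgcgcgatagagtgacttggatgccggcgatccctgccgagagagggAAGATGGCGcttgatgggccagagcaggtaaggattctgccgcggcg
Psmb3: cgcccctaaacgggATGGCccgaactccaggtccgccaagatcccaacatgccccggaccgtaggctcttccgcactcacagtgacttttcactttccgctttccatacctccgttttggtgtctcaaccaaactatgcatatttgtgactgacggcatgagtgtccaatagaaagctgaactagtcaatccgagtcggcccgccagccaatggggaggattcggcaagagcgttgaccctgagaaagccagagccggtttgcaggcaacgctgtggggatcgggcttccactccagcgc
Psmb5: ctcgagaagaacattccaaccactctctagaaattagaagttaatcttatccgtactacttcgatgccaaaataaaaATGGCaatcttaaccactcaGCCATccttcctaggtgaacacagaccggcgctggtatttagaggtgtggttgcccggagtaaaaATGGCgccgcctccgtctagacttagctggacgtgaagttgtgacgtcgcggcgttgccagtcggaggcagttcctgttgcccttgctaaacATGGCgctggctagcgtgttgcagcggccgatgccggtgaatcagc

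In Psmb6 the longer match covered bases 288 to 296 of the window and in Psmc5 bases 254 to 262, so both lay past the annotated start, which follows base 250. Psmb3 held the shorter core at bases 15 to 19. Psmb5 held it at 4 places, the last at bases 255 to 259. Searched on both strands, AAGATGGCG was present for 2 of the 39 genes, or 5.13%, against 1.4% of all 32851 windows and 3.65% of 9807 tested protein-coding genes. ATGGC, which lies inside the longer letters, was present for 19 genes, or 48.7%, against 40.5% of windows and 43.5% of the tested genes. By role, 8 of 12 core genes, 8 of 14 cap genes and 1 of 6 assembly genes held it.

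Letters of 2 factors known to act on proteasome promoters were searched in the same way. TGANNNNGC, the loose form of the antioxidant response element that NRF1 and NRF2 bind, was present for 22 of the 39 genes, or 56.4%, against 41.3% of windows and 47.9% of the tested genes. The stricter TGACNNNGC, chosen after the data were seen and contained in the former, was present for 6 genes, or 15.4%, against 12.4% and 16.7%. CCAAT, the box that NF-Y binds, was present for 14 genes, or 35.9%, against 37.4% and 44.1%. These are matches of letters and no measurement of binding.

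Proteasome messages were abundant in these cells. Divided by transcript length, 43 of the 44 tested genes lay above 10.38 CPM per kb, the median of 12434 tested protein-coding genes in the empty libraries, and the exception was Psmd10. The median level was 113.7 CPM per kb over the tested core genes, 91.5 over the cap genes, 24.1 over the assembly genes and 31.5 over the alternative caps. The 47 genes together took 0.546% of all counts in the empty libraries and 0.558% in the Yy1 libraries.

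Levels differed widely within a complex whose subunits are used in fixed proportions. In the core, Psma7, an alpha ring subunit, was highest at 181 ± 8.38 CPM per kb (SD, n = 4, empty plasmid), and the catalytic Psmb5 was lowest at 17.8 ± 0.532. That is a 10.2-fold range, with Psmb6 at 58.2 ± 2.95 and Psmb7 at 144 ± 5.61 CPM per kb in between. The low end depends on how reads were divided between Psmb5 and its near-identical pseudogene Gm3375. In the empty libraries Psmb5 was at 16.0 ± 0.478 CPM and both together at 23.85 ± 0.809 CPM. The range would be narrower if reads of Psmb5 were counted for the pseudogene. In the cap, the scaffold Psmd2 was highest at 151 ± 5.75 and the lid subunit Psmd11 lowest at 21.1 ± 0.9498 CPM per kb, a 7.18-fold range. Among the assembly genes the range was 3.40-fold, from Psmg2 at 34.3 ± 1.54 to Psmd10 at 10.1 ± 0.493 CPM per kb. Levels per length depend on the transcript chosen for the length: Psma2 and Psma3 were divided by 2911 and 2846 bases, Psma7 by 914 and Psmb5 by 899.

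The order of the levels was nearly the same with either plasmid, and no tested gene moved by more than 3 ranks. Many neighbours in the order lay within their spread. Psmb4 at 161 ± 5.76 and Psmb3 at 160 ± 5.53 CPM per kb were not separated, nor were Psma6 at 129 ± 8.48 and the ATPase Psmc1 at 126 ± 11.7. Psmb6 at 58.2 ± 2.95 and Psma4 at 57.7 ± 3.41 CPM per kb were not separated either. Psmb5 lay below every other core gene by more than the spread, the next being Psma3 at 42.7 ± 3.59 CPM per kb.

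**Figure D1:**
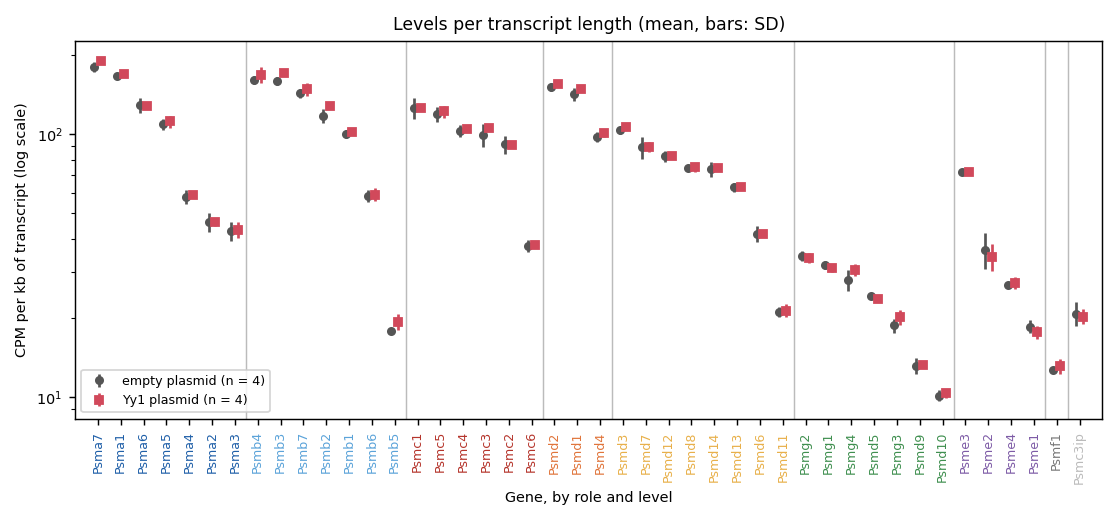
Level of each tested gene in CPM per kb of transcript (y axis, log scale), ordered by role and by level (x axis), as the mean of 4 libraries with SD for the empty plasmid (grey circles) and the Yy1 plasmid (red squares). Core and cap genes stand mostly between 37.5 and 181 CPM per kb, the assembly genes between 10.1 and 34.3, and the order differs by at most 3 ranks between the plasmids.

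Of the 15916 genes tested in the series, 82, or 0.515%, passed an adjusted p of 0.05, 79 of them (0.496%) higher in the Yy1 libraries and 3 lower. Calls were rarer among protein-coding genes. Of 12466 tested ones 12 passed, and of the 9572 with an average log2 CPM of 3 or more 2 passed, Yy1 included. Of the 44 tested members, 0 passed, and the smallest adjusted p was 0.578. The unadjusted edgeR p was under 0.05 for 2 of them, Psmb2 and Psmb3. That is 4.55%, beside 5.42% of all tested genes in either direction and 3.23% in the higher direction, in which both lay. DESeq2 and limma-voom each called 0.534% of all tested genes and 0 members. With each the same pair had an unadjusted p under 0.05, as had 4.35% and 5.64% of all tested genes. The libraries of the groups did not overlap for 2 members, again Psmb2 and Psmb3, or 4.55%, beside 3.95% of all tested genes and 2.37% in the higher direction. Among tested protein-coding genes with an average log2 CPM of 3 or more, 3.9% had an unadjusted edgeR p under 0.05. In that set the libraries did not overlap for 2.95%. The members' shares lie near this background.

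The fold changes themselves were small. They ran from -0.080 (Psme2) to 0.12 (Psmb2) on the log2 scale, and the 95% interval lay wholly within 0.2 either side of 0, or within 1.15-fold, for 37 of the 44 genes, or 84.1%. Over all tested genes 47.6% had so narrow an interval, and among tested protein-coding genes with an average log2 CPM of 3 or more 77.5% did. The log2 fold change was above 0 for 32 of the 44 genes, or 72.7%, beside 48.6% of all tested genes. Their median was 0.019, beside -0.0025 over all tested genes.

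**Figure D2:**
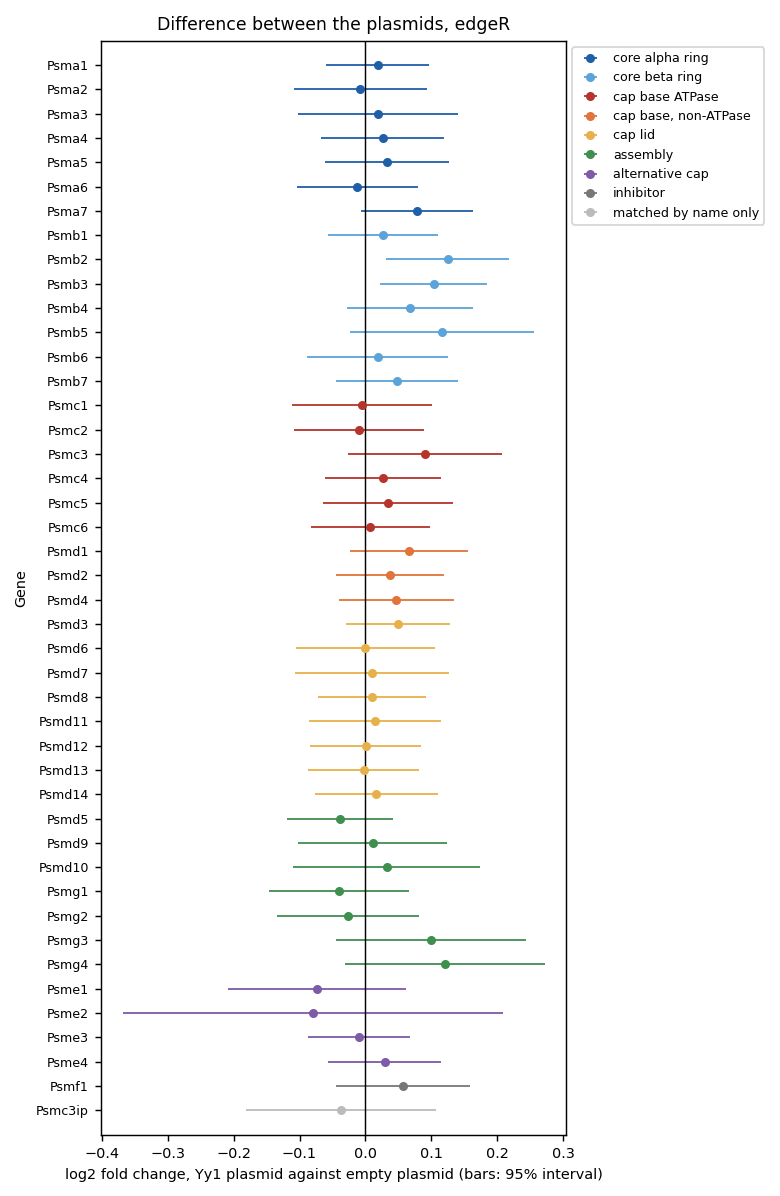
Log2 fold change of the Yy1 plasmid against the empty plasmid (x axis) for each of the 44 tested genes (y axis), with its 95% interval from the edgeR fit, coloured by role. The intervals of Psmb2 and Psmb3 alone lie on one side of 0, before adjustment over all genes, and the 7 beta ring points all lie to the right of 0.

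In the core particle, 12 of the 14 tested genes had a positive log2 fold change, or 85.7%, beside 48.6% of all tested genes. The core median was 0.030, and 0 core genes passed the test. The 2 with the smallest p were beta ring subunits without a catalytic site. Psmb2 (ENSMUSG00000028837) stood at 104.7, 103.5, 91.8 and 105.2 CPM in the empty libraries and at 112.3, 111.7, 112.0 and 106.4 CPM in the Yy1 libraries. Every Yy1 library was above every empty library, with library 33 far below the other empty ones and library 48 close above them. The log2 fold change was 0.12 with a standard error of 0.045 (edgeR unadjusted p = 0.0110, adjusted p = 0.578). Without library 33 it was 0.082.

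Psmb3 (ENSMUSG00000069744), whose subunit sits next to that of Psmb2 in the ring, stood at 127.2, 124.1, 118.0 and 119.4 CPM in the empty libraries and at 130.4, 129.4, 132.8 and 132.5 CPM in the Yy1 libraries. The groups did not overlap, and the highest empty library, 31, lay just under the lowest Yy1 library, 46. The log2 fold change was 0.10 with a standard error of 0.039 (edgeR unadjusted p = 0.0146, adjusted p = 0.658).

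The sites that cut proteins are in Psmb5, Psmb6 and Psmb7. Psmb5, which carries the chymotrypsin-like site that proteasome inhibitors target, stood at 16.6, 16.0, 15.4 and 16.1 CPM in the empty libraries and at 18.2, 15.9, 18.4 and 17.1 CPM in the Yy1 libraries. Libraries 45, 47 and 48 were above all empty libraries, while 46 lay among them. Its log2 fold change was 0.12 with a standard error of 0.068 and an edgeR adjusted p of 0.946.

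Psmb6, with the caspase-like site, stood at 49.5, 47.0, 44.5 and 44.7 CPM against 50.2, 43.5, 47.0 and 47.5 CPM. The groups overlapped over nearly their whole range, and the log2 fold change was 0.018 (standard error 0.051). Psmb7, with the trypsin-like site, stood at 173.0, 169.2, 166.5 and 157.7 CPM against 177.6, 158.6, 181.7 and 171.0 CPM. Yy1 library 46 was near the lowest empty library, 34, and the log2 fold change was 0.048 (standard error 0.045). Psmb6, whose window holds the 9 YY1 letters, and Psmb5, with its 4 short matches, did not pass the test. Neither did any other member, with or without the letters, and whether the letters have a part was not tested.

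Of the 7 tested beta ring genes, all 7 had a positive log2 fold change, with a median of 0.067, and of the 7 tested alpha ring genes 5 did, with a median of 0.019. Summed over the beta ring, the level was 857.0, 817.2, 801.8 and 802.5 CPM in the empty libraries and 895.1, 827.8, 871.5 and 838.1 CPM in the Yy1 libraries. Yy1 libraries 46 and 48 lay under empty library 31, and the mean differed by 4.69%. The alpha ring sum was 960 ± 41.8 CPM in the empty libraries and 976 ± 19.5 CPM in the Yy1 libraries (SD, n = 4). Psma7 had the smallest p of the alpha ring, at 174.4, 162.3, 168.5 and 156.7 CPM against 176.2, 172.1, 179.6 and 170.7 CPM. Only empty library 31 reached into the Yy1 range, and the log2 fold change was 0.078 with a standard error of 0.041 (edgeR adjusted p = 0.929).

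The core genes Psma8 and Psmb11 were near 0. Psma8, the alpha subunit of the testis proteasome, had 0, 3, 0 and 0 counts in the empty libraries and 2, 0, 0 and 1 in the Yy1 libraries. Psmb11, the subunit of the thymus proteasome, had 3, 0, 1 and 6 counts against 4, 1, 2 and 3. Where no count was seen, up to 3 counts remain possible from counting error alone, which is 0.145 CPM at the lowest depth and 0.09 CPM at the highest. Fold changes are not given for them.

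**Figure D3:**
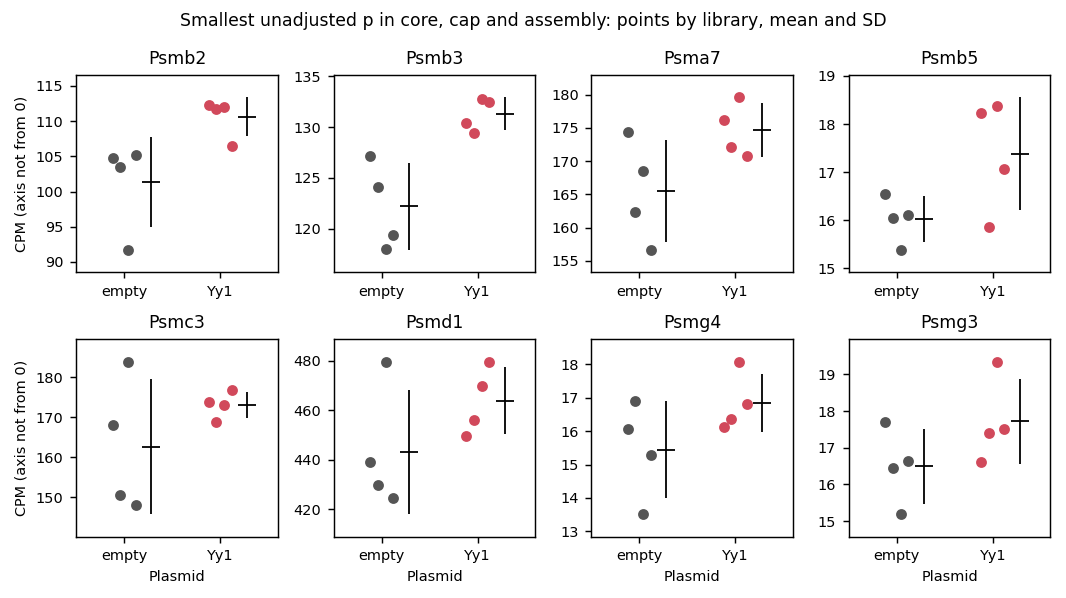
CPM in each library (y axes, not starting at 0) by plasmid (x axes) for the genes with the smallest unadjusted p in core, cap and assembly, with the mean and SD of 4 libraries beside the points. Psmb2 and Psmb3 are the panels without overlap, and in Psmc3 and Psmd1 one empty library, 33, stands at or above the Yy1 libraries.

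In the cap, 14 of 17 genes had a positive log2 fold change, or 82.4%, beside 48.6% of all tested genes. Of the 14, Psmd6 at 2.3e-06 and Psmd12 at 4.1e-05 were in effect at 0, and both were below 0 with library size alone. The cap median was 0.015, and 0 genes had an unadjusted p under 0.05. Psmc3, an ATPase of the base, had the smallest p. It stood at 168.1, 150.5, 183.9 and 148.1 CPM in the empty libraries and at 173.7, 168.8, 173.0 and 176.7 CPM in the Yy1 libraries. The Yy1 libraries were close together, 3 empty libraries lay under all of them, and empty library 33 lay above all of them. The log2 fold change was 0.091 with a standard error of 0.056 (edgeR adjusted p = 0.953). Without library 33 it was 0.15 and the adjusted p was 0.146, the smallest of any member in any alternative tried. Without library 34 it was 0.048 (edgeR adjusted p = 0.949), and without library 32 it was 0.055.

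The other ATPases, Psmc1, Psmc2, Psmc4, Psmc5 and Psmc6, had log2 fold changes from -0.010 to 0.034. The sum of all 6 ATPases was 916 ± 65.3 CPM in the empty libraries and 931 ± 14.9 CPM in the Yy1 libraries (SD, n = 4). Psmc5, whose window holds the 9 letters, stood at 157 ± 10.2 and 161 ± 8.36 CPM.

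The scaffold Psmd1 showed the pattern of Psmc3, at 439.1, 429.7, 479.7 and 424.4 CPM against 449.7, 456.2, 469.9 and 479.7 CPM. Empty library 33 matched the highest Yy1 library, and the other empty libraries lay under all Yy1 libraries (log2 fold change 0.066, standard error 0.043). Psmd2, the other scaffold and the cap gene of highest level, stood at 459.4, 442.6, 464.0 and 426.6 CPM against 455.3, 447.8, 469.7 and 466.6 CPM. Its groups overlapped. Psmd4, the ubiquitin receptor, stood at 136.9, 127.4, 133.4 and 123.1 CPM against 140.9, 131.5, 133.0 and 132.4 CPM, also with overlap (log2 fold change 0.047, standard error 0.042).

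The 8 lid genes lay within -0.0026 and 0.050 on the log2 scale, the narrowest range of the roles with more than 3 genes. Psmd14, the deubiquitinase that removes ubiquitin chains before unfolding, stood at 121.4, 112.0, 117.6 and 104.2 CPM in the empty libraries and at 113.1, 112.9, 115.6 and 118.6 CPM in the Yy1 libraries. All Yy1 libraries lay inside the empty range, and the 95% interval of the log2 fold change ran from -0.077 to 0.11. Psmd3, a structural lid subunit, stood at 213.9, 231.2, 219.4 and 224.1 CPM against 225.9, 232.8, 232.1 and 228.9 CPM. Empty library 32 reached into the Yy1 range (log2 fold change 0.050, standard error 0.038). Psmd11, which helps to hold cap and core together and is the lowest cap gene per length, stood at 61.4, 56.0, 61.1 and 61.7 CPM against 56.6, 59.4, 64.1 and 62.7 CPM. Yy1 libraries 47 and 48 lay above all empty libraries, and 45 and 46 lay inside the empty range.

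The assembly genes build the particle and are not part of the finished proteasome. Psmg1 to Psmg4 encode chaperones of the alpha ring, and Psmd5, Psmd9 and Psmd10 encode chaperones of the base. Of the 7 genes 4 had a positive log2 fold change, with a median of 0.011, and 0 had an unadjusted p under 0.05. Their sum was 256 ± 1.98 CPM in the empty libraries and 255 ± 3.53 CPM in the Yy1 libraries (SD, n = 4).

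Psmg4 stood at 16.1, 16.9, 13.5 and 15.3 CPM in the empty libraries and at 16.1, 16.4, 18.1 and 16.8 CPM in the Yy1 libraries. Its partner Psmg3 stood at 17.7, 16.4, 15.2 and 16.6 CPM against 16.6, 17.4, 19.4 and 17.5 CPM. In both genes empty library 33 was the lowest and Yy1 library 47 the highest, and the groups overlapped. The log2 fold changes were 0.12 (standard error 0.073) for Psmg4 and 0.099 (standard error 0.069) for Psmg3, with edgeR adjusted p of 0.953 and 0.968.

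The pair of Psmg1 and Psmg2, which act together, lay on the other side of 0. Psmg1 stood at 32.9, 34.5, 31.6 and 33.5 CPM against 33.2, 31.9, 31.0 and 32.7 CPM (log2 fold change -0.040, standard error 0.051). Psmg2 stood at 38.4, 36.1, 34.5 and 36.4 CPM against 37.6, 34.3, 34.9 and 36.1 CPM (log2 fold change -0.027, standard error 0.052). Both overlapped over most of their range. Psmd5 stood at 104.6, 103.8, 107.3 and 108.9 CPM against 105.4, 102.0, 103.6 and 102.2 CPM, with only Yy1 library 45 above the lowest empty libraries (log2 fold change -0.039, standard error 0.039). Psmd10 stood at 14.96, 13.4, 14.9 and 14.4 CPM against 14.4, 14.1, 15.4 and 15.2 CPM and overlapped as well.

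The alternative caps open the core without ubiquitin. Of the 4 tested, 1 had a positive log2 fold change, and the median was -0.041. Psme1 and Psme2, which form the cap known to be raised by interferon, had log2 fold changes of -0.074 (standard error 0.065) and -0.080 (standard error 0.12). Psme2 varied most between libraries of one group, from 30.7 to 42.5 CPM in the empty libraries. Psme3, the nuclear cap, was at 192 ± 2.87 and 191 ± 4.47 CPM, and Psme4, which acts in DNA repair and sperm formation, at 173 ± 2.70 and 176 ± 9.31 CPM (SD, n = 4). Psme2b, a near copy of Psme2, had 2 counts in all, both in Yy1 library 48. Psmf1, the inhibitor, had a log2 fold change of 0.057 (standard error 0.049), and Psmc3ip one of -0.037 (standard error 0.069).

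Members also differed between libraries of one group, with a median SD of 0.071 in log2 CPM, beside 0.10 over all tested genes. Among tested protein-coding genes with an average log2 CPM of 3 or more it was 0.073, near that of the members. Empty library 31 was the highest of its group for 11 of the 14 core genes, where it was so for 22.5% of all tested genes. Empty library 34 was the lowest of its group for 20 of the 44 members, beside 23.2% of all genes, and Yy1 library 46 also for 20, beside 23.9%. Empty library 33, the one of least depth, was the highest of its group for 5 of the 6 ATPases and the lowest for 4 of the 7 beta ring genes. Over all genes it was the highest for 29.0% and the lowest for 29.8%. Whether depth or handling has a part in this was not tested.

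Taken over the 44 members, the median deviation of log2 CPM from each gene's mean over all libraries was 0.032, -0.054, 0.0098 and -0.063 in the empty libraries 31 to 34. In the Yy1 libraries 45 to 48 it was 0.020, -0.013, 0.028 and 0.0081. Over all tested genes the same median stayed between -0.0010 and 0.0040. Libraries 32 and 34 thus lay low for the members as a group, while 31 and 33 lay among or above the Yy1 libraries. Leaving out library 33 gave 5 members with an unadjusted p under 0.05 in place of 2: Psma7, Psmb2, Psmb3, Psmc3 and Psmd1. Any other library left out gave 2 or 3. The share of all tested genes under 0.05 was not taken in these fits, so the counts have no background beside them. Leaving out a library moved the core median between 0.019 (without 34) and 0.064 (without 31) and the cap median between 0.0030 (without 32) and 0.044 (without 33).

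**Figure D4:**
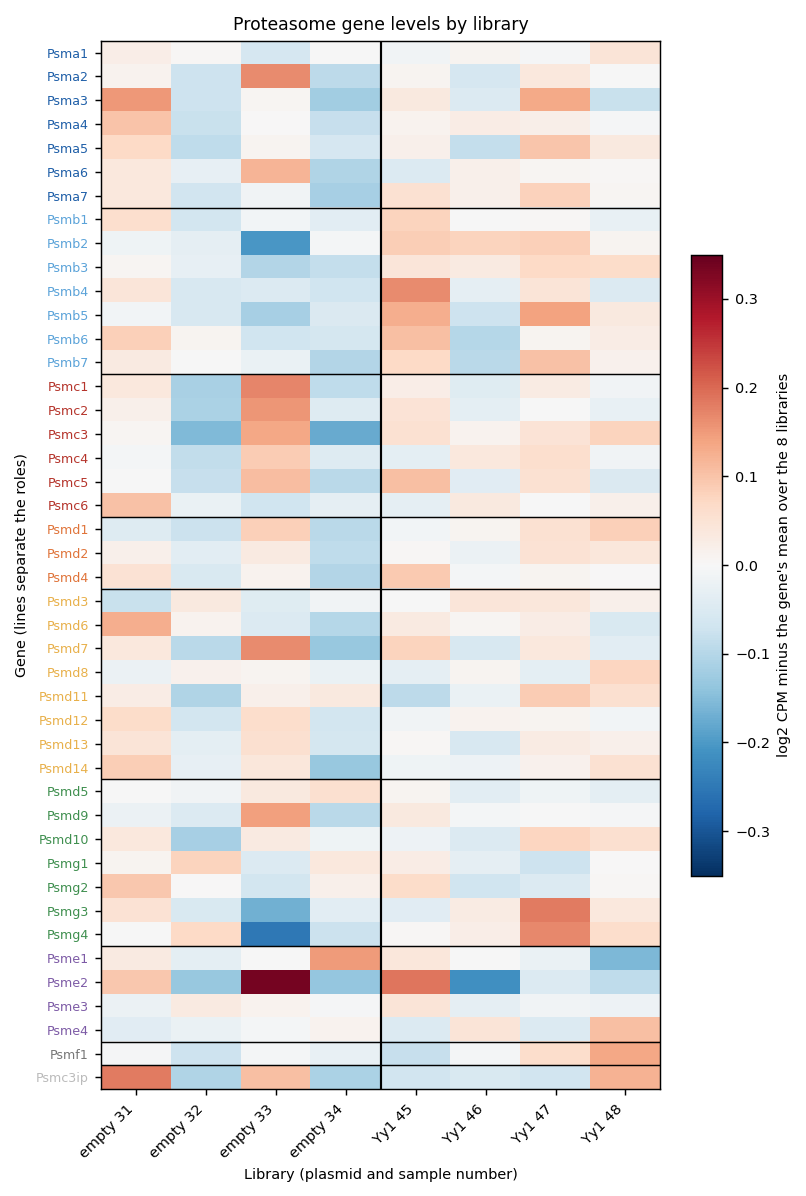
Log2 CPM of each tested gene (rows, grouped by role) in each library (columns), shown as the difference from the gene's mean over the 8 libraries, with red above and blue below the mean. In empty library 33, 5 of the 6 ATPase rows are red while Psmb2 and Psmg4 are blue. Most beta ring rows are blue in empty libraries 32, 33 and 34. They lie above the mean in Yy1 libraries 45 and 47 and are mixed in 46 and 48.

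**Figure D5:**
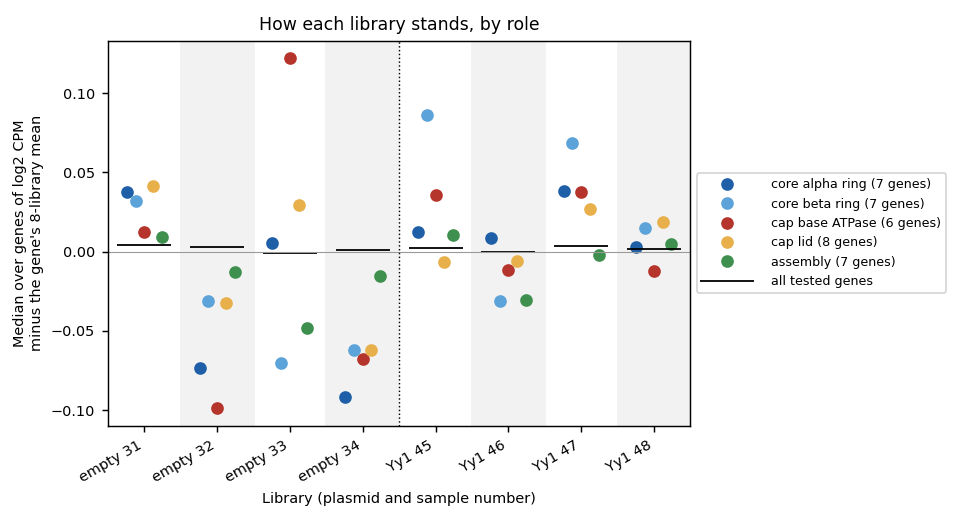
Median deviation of log2 CPM from the gene's mean over the 8 libraries (y axis) for the alpha ring, beta ring, ATPase, lid and assembly genes in each library (x axis), with a black bar for all tested genes. Empty library 33 has the ATPases at 0.12 and the beta ring at -0.070, while the bars for all genes stay within 0.0040 of 0.

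Genes that work with the proteasome were read from the same fit. A list of 42 held ubiquitin genes, cap subunits without a Psm symbol, assembly factors, shuttle factors, the p97 machinery and factors that transcribe proteasome genes, with the immunosubunits. 41 were tested, and Paaf1 was not analysed here. Of these 0 passed the test, and 1 had an unadjusted edgeR p under 0.05, or 2.44%, beside 5.42% of all tested genes. The log2 fold change was positive for 22, or 53.7%, beside 48.6% of all tested genes, with a median of 0.0046. The smallest p belonged to Pomp, the chaperone that brings the beta ring together. It stood at 121.5, 104.4, 111.8 and 106.0 CPM in the empty libraries and at 129.4, 114.1, 118.6 and 117.5 CPM in the Yy1 libraries. Empty library 31 lay above all Yy1 libraries but 45, and the log2 fold change was 0.11 with a standard error of 0.050 (edgeR unadjusted p = 0.0349, adjusted p = 0.866).

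Nfe2l1, which encodes NRF1, stood at 229.1, 237.6, 242.8 and 241.8 CPM against 241.4, 232.3, 235.5 and 244.5 CPM. The groups overlapped, with a log2 fold change of 0.0037 (standard error 0.038). Ngly1, the enzyme that removes sugar chains from NRF1, stood at 11.8, 12.01, 10.3 and 11.99 CPM against 13.0, 12.7, 11.8 and 12.9 CPM, with Yy1 library 47 inside the empty range (log2 fold change 0.13, standard error 0.076). The cap subunits Adrm1 and Sem1 had log2 fold changes of 0.035 (standard error 0.043) and -0.041 (standard error 0.15). Zfand2a, a shuttle factor, stood at 106 ± 3.22 and 110 ± 0.776 CPM (SD, n = 4). The groups did not overlap for 1 listed gene, or 2.44%, beside 3.95% of all tested genes. It was Nfya, a subunit of NF-Y named here after its values were seen. Nfya stood at 106.9 to 109.1 CPM against 103.3 to 106.7 CPM (log2 fold change -0.030, edgeR adjusted p = 0.993).

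The immunosubunits replace the catalytic subunits in immune cells and under interferon. As a share of the constitutive counterpart per length, Psmb8 was at 13.4 ± 2.57% of Psmb5 in the empty libraries and 13.5 ± 2.18% in the Yy1 libraries (SD, n = 4). Psmb9 was at 5.20 ± 0.388% and 4.56 ± 0.574% of Psmb6, and Psmb10 at 10.2 ± 0.660% and 9.76 ± 0.682% of Psmb7. All 3 shares overlapped between the groups. The constitutive subunits were thus the main form of message in every library, with shares from 3.86% to 16.2%. The shares of Psmb8 leave out the pseudogene Gm3375, a near copy of Psmb5 at 7.83 ± 0.397 CPM in the empty libraries. Estimated counts divide reads between Psmb5 and this copy, so the shares of Psmb8 are uncertain.

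Near-identical copies limit some values. Among the members, 15 share at least 95% identity over at least 200 bases with a transcript of another gene, and for 7 of them that gene was above 1 CPM. Psmb5 shares 98.9% identity over 796 bases with the pseudogene Gm3375, which was at 7.83 ± 0.397 CPM in the empty libraries and 7.14 ± 0.870 CPM in the Yy1 libraries. Psmb5 and Gm3375 together were at 23.85 ± 0.809 and 24.5 ± 1.67 CPM (SD, n = 4). The sum differed by less than its spread. Psma3 matches Gm13835 over 665 bases without a mismatch, and Psmb7, Psmd13 and Psmc3ip share stretches of 255, 329 and 385 bases with Nek6, Sirt3 and Mlx. Psmd11, the lowest cap gene per length, shares 97.9% identity over 1501 bases with A730017L22Rik. That transcript was at 6.63 ± 0.671 CPM in the empty libraries and 6.68 ± 0.785 CPM in the Yy1 libraries. Estimated counts divide the reads among such pairs, so values of these genes are uncertain.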

How the data were processed

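Poly(A) RNA from 8 samples was made into strand-specific libraries, per the labels' protocols. The tools named, per the submitters' processing notes, are kallisto and fastp, and the build is GRCm39. Their versions are not given in the sources used here. The authors deposited estimated counts per Ensembl gene for 8 columns, not scaled for depth. Of the nonzero values 35.9% were not whole (tolerance 0.001), and all were rounded before testing. Symbols and gene types were taken from GENCODE release 21 for the mouse, which matched 48278 of 75078 IDs. Promoter windows came from RefSeq for GRCm38.p6, an older build than the authors' one.

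Genes were filtered with filterByExpr (minimum count 10, total 15), scaled by TMM (factors 0.9883 to 1.009) and tested with edgeR 4.0.16 in R 4.3.3 (glmQLFit, robust, and glmQLFTest, two-sided), with Benjamini-Hochberg adjustment over 15916 genes and a threshold of 0.05. The standard error is that of the log2 fold change on this scale, and 95% intervals use the same fit. The common coefficient of biological variation was 0.0567. CPM use TMM-scaled library sizes, and levels between genes use CPM per kb of the principal coding transcript in GENCODE. Copies were found with BLAST 2.17.0.

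The members and lists were chosen with earlier results of these data known, so no test over a list was made. Values in every library are given for the 4 genes of core, cap and assembly with the smallest p, the catalytic subunits, Psmd14, the genes of highest and lowest level, members under the filter, and up to 4 partner genes. Marker lists covered alpha, beta, delta and PP, acinar and duct, and stromal, endothelial and immune cells. Sums for beta cell markers were 49.0 to 58.9 CPM, nearly all Nkx6-1, and for acinar and duct markers 15.4 to 19.2 CPM. Alternatives were RLE, upper-quartile and library-size scaling, 2 other filters, protein-coding genes only, DESeq2 1.42.0, limma-voom (limma 3.58.1), the parity of the sample number as a covariate, each library left out and, added after seeing the data, Yy1 left out before scaling. Limits given for counts of 0 reflect counting error alone.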

Additional observations from a re-analysis of the deposited data

Results flagged for a closer look

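In 6 of 88 groups of 4 libraries, or 6.82%, 1 library stood apart by Dixon's criterion for 4 values, which chance alone meets in about 1 of 20 groups. Psmb2 was at 91.8 CPM in empty library 33, where the other empty libraries had 103.5 to 105.2 CPM. It was at 106.4 CPM in Yy1 library 48, where the others had 111.7 to 112.3 CPM. Psmd4 was at 140.9 CPM in Yy1 library 45, against 131.5 to 133.0 CPM in the others, and Psmd9 at 34.9 CPM in the same library, against 34.0 to 34.1 CPM. Psmd11 was at 56.0 CPM in empty library 32, against 61.1 to 61.7 CPM in the others. Psmc3ip was at 28.6 CPM in Yy1 library 48, against 25.1 to 25.4 CPM in the others.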

How the results depend on the processing

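Under 10 alternatives and with each of 8 libraries left out, 0 members and 0 partner genes were called, and the medians of core and cap stayed above 0. No paired analysis was possible because the groups share no replicate numbers. Scaling moved the median of all genes by at most 0.0076 on the log2 scale. Of the 44 tested members 25 kept their direction throughout and 19 did not, all of them at most 0.080 from 0 on the log2 scale in the main analysis. Upper-quartile scaling gave 0.00047 for Psma2, 0.0026 for Psmc1 and 0.0053 for Psmd13, and Psmd13 was 0.0014 with no filter and 0.0019 among protein-coding genes only. Psmd12 was -0.0022 and Psmd6 -0.0028 with library size alone, and -0.0018 for each with Yy1 left out before scaling. Psmd6 was -0.00060 with the parity of the sample number as a covariate. With 1 library left out, the log2 fold changes that crossed 0 ranged as follows: Nfe2l1 -0.016 to 0.014, Psma2 -0.039 to 0.048, Psma3 -0.024 to 0.074, Psma6 -0.048 to 0.025, Psmb10 -0.044 to 0.020, Psmb6 -0.015 to 0.052, Psmc1 -0.043 to 0.053, Psmc2 -0.048 to 0.041, Psmc3ip -0.087 to 0.021, Psmc6 -0.013 to 0.043, Psmd10 -0.0014 to 0.051, Psmd11 -0.018 to 0.046, Psmd12 -0.022 to 0.020, Psmd13 -0.023 to 0.015, Psmd14 -0.024 to 0.048, Psmd6 -0.033 to 0.044, Psmd7 -0.032 to 0.068, Psmd8 -0.016 to 0.023, Psmd9 -0.019 to 0.059, Psme2 -0.16 to 0.019, Psme4 -0.0041 to 0.050, Sem1 -0.12 to 0.083. The cause was not tested.

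The assembly median ranged from -0.019 (without empty library 34) to 0.046 (without empty library 33). Over all genes, 79 were called higher and 3 lower. The number higher was 151 with no filter, 52 with at least 1 CPM in 4 libraries and 9 among protein-coding genes only, and 60 to 83 with 1 library left out. The number lower was 23 with no filter, 5 with DESeq2, 1 among protein-coding genes only, 6 with the parity of the sample number as a covariate and 2 to 7 with 1 library left out (6 without empty library 33, 7 without Yy1 library 45 and 5 without Yy1 library 47). These counts concern other genes than the members. With 4 libraries a group, each 95% interval given is the range of differences that the spread between samples leaves possible for a gene. In the edgeR fit this spread is estimated for a gene partly from the other genes. That spread may be only technical, and the intervals do not cover handling that differed between the groups.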
